A study of Mus musculus with 60 samples.

Results

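The peaks described here lie in the first intron of a transcript and carry histone H4 acetylated at lysine 8 (H4K8ac), in hippocampal nuclei of Emx1-NuTRAP mice. They were taken from 6 deposited peak lists by the annotation text alone, which had to name an intron and give it as intron 1 of its transcript. The lists held 17950 such peaks, against 40425 peaks in later introns and 155961 H4K8ac peaks of all classes. Because the annotation gave every peak within 3 kb of a transcript start to the promoter class, all first intron peaks lay more than 3 kb from the nearest start.

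The study profiled H4K8ac, H3K27me3 and an IgG control by CUT&RUN (antibody-directed cleavage of chromatin by a tethered nuclease) in 60 samples, and 12 peak lists of both histone marks were used here. All mice were Emx1-NuTRAP males, from an Emx1-IRES-Cre knock-in crossed with the NuTRAP reporter, so that tagged nuclei came from cells with an Emx1 history. These are mostly excitatory neurons, with neural progenitors among them, and no wild type group entered these lists. Exercised mice ran freely on a wheel between postnatal days 21 and 41, and sedentary mice were housed without one. Nuclei came either from the simultaneous INTACT and TRAP protocol (SIT) on both hippocampi, with 4 labelled samples per group and mark, or from the left or the right hippocampus alone in separate isolations, with 3 labelled samples per group and mark. Each list stands for a whole group and keeps no replicate values. The study's methods exclude some exercised H4K8ac samples for a high false discovery rate, more of them from the separate isolations, whose exercised lists were the shortest, than from SIT. Which of the labelled samples entered each list, in either condition, is not stated.

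H4K8ac is deposited by histone acetyltransferases and is found at promoters and enhancers that are open to transcription. The first intron is transcribed directly after the first exon, is often the longest intron of a gene, and is known as a common place for enhancers and alternative promoters. In neurons, many genes for adhesion molecules and ion channels have very long first introns.

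The 6 H4K8ac lists differed in length, from 12168 to 38136 peaks. The separate isolations of exercised mice gave the 2 shortest lists. As a check of the label, the lists were read against marker genes by the nearest gene of any peak. Between 5 and 8 of the 8 excitatory neuron markers had a peak, and between 0 and 2 of the 6 interneuron markers. Of the other marker lists, 2 to 5 of 5 astrocyte markers, 1 to 3 of 6 oligodendrocyte markers, 1 or 2 of 4 microglial markers and 1 of 4 endothelial markers had a peak. Of 21924 protein-coding genes, 41.2% and 32.8% were the nearest gene of a peak in the exercised and sedentary SIT lists, 19.6% and 39.4% in the left and 22.1% and 31.6% in the right lists, and the marker counts are read against these shares. The part of other cell types in the first intron peaks was not tested.

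First introns held a nearly constant share of all intron peaks. The share was 31.2% (95% Wilson interval 30.4 to 31.96) in the exercised SIT list and 30.3% (29.5 to 31.2) in the sedentary SIT list. In the left hippocampus it was 31.4% (30.04 to 32.7) after exercise and 30% (29.3 to 30.8) in sedentary mice. In the right hippocampus the values were 31.0% (29.8 to 32.3) and 31.4% (30.4 to 32.4). The intervals cover counting error only, since peaks of a list are not independent samples. As a share of all peaks, first intron peaks made up 10.9 to 12.2% of a list.

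The regions below were found in all 6 lists, and their sequences are shown as examples of first introns acetylated under both conditions and in all 3 arms (SIT, left and right). Each sequence is the central 300 bp of the bases that lay under a first intron peak in every list, read on the forward strand of mm10 from the RefSeq GRCm38.p6 genome. St6galnac3 encodes a sialyltransferase, and its region had the largest summed peak width of all. Kcnq5 encodes a voltage-gated potassium channel subunit, and Celf2 an RNA-binding regulator of splicing. Capitals mark matches on either strand to TGANTCA (the AP-1 motif), TGACGTCA (the cAMP response element), the MEF2 motif (CTA, any 4 bases, TAG) or CAGATG (an E-box of the NeuroD type). No 2 matches overlapped in these windows.
St6galnac3, chr3:153581175-153581474: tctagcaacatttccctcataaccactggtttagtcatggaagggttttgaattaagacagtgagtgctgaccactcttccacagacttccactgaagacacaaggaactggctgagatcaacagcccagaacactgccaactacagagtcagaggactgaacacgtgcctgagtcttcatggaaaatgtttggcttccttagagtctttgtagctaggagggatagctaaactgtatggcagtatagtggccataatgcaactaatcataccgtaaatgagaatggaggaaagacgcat
Celf2, chr2:7308248-7308547: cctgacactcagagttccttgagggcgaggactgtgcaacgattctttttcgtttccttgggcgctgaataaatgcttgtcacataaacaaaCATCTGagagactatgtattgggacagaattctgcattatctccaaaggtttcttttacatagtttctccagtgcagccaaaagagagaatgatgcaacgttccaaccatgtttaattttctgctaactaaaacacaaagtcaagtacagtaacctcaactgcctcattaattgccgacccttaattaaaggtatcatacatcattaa
Kcnq5, chr1:21829894-21830193: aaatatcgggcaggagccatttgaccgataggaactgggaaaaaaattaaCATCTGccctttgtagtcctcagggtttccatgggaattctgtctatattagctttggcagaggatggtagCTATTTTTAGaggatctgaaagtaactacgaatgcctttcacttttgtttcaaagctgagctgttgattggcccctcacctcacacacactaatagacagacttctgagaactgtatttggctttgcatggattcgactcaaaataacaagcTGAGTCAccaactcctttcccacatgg

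The St6galnac3 window held none of the 4 motifs, and the Celf2 window 1 E-box. The Kcnq5 window held 1 AP-1 motif, 1 MEF2 motif and 1 E-box. Across all first intron peaks, the AP-1 motif was present in the central 300 bp of 9.77 to 12.2% of peaks per list, against 10.5 to 12.2% of later intron peaks and 9.10% of 663672 windows of the same length tiled over first introns. The E-box was present in 23.9 to 25.9% of first intron peaks, in 23.6 to 25.7% of later intron peaks and in 22.0% of the tiled first intron windows. The MEF2 motif was in 4.85 to 6.28% of first intron peaks, 5.29 to 6.15% of later intron peaks and 5.21% of tiled windows. The cAMP response element was in 0.208 to 0.319% of first intron peaks, which is 3 to 13 peaks per list, in 0.150 to 0.258% of later intron peaks and in 0.158% of tiled windows. Another 211 windows were taken, like those shown, from bases common to all 6 lists. The AP-1 motif was in 17 of them (8.06%), the E-box in 60 (28.4%), the MEF2 motif in 12 (5.69%) and the cAMP response element in 1 (0.474%). AP-1 was below and the E-box above its share of tiled windows, but these counts are small and were given no interval. The ranges of first and later intron peaks overlapped for all 4 motifs, and no test was run on them.

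Over all distances, no difference in width between first and later intron peaks was detected. In the exercised SIT list the median width was 1743.5 bp in first introns and 1744.0 bp in later introns, and in the sedentary SIT list 1229 and 1236 bp. In the left hippocampus the medians were 1751 and 1742 bp after exercise, and 1392 and 1372 bp in sedentary mice. In the right hippocampus they were 1568.5 and 1563.0 bp, and 1875 and 1859 bp. The first intron medians of the lists ranged from 1229 to 1875 bp, but within a list the 2 classes stayed within 20 bp. The mean difference, first minus later, was 7.17 bp (SD 10.1, n = 6 lists, positive in 4 of 6; exact two-sided sign-flip permutation test, p = 0.188, 0.225 after Benjamini-Hochberg adjustment over 6 tests). Among peaks more than 100 kb from the nearest start, first intron peaks were wider by 29.2 bp (SD 13.0, positive in 6 of 6 lists; exact sign-flip permutation test, adjusted p = 0.0375, not adjusted over the 4 distance ranges). At 3 to 10, 10 to 30 and 30 to 100 kb the differences were -5.5, 16.2 and 11.8 bp and were not called (exact sign-flip permutation test, adjusted p = 0.688, 0.113 and 0.375).

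First intron peaks lay closer to a transcript start. Their median distance was 24187.5 bp in the exercised SIT list and 27199.0 bp in the sedentary one, against 37684.0 and 38493.0 bp for later introns. In the left hippocampus the first intron medians were 27253.0 and 25482.0 bp, against 34798.0 and 36383.0 bp, and in the right hippocampus 26051.0 and 26944.5 bp, against 37239.0 and 39111.5 bp. The 2 classes did not overlap over the 6 lists. The mean difference, first minus later, was -11098.6 bp (SD 1980.1, n = 6 lists), in the same direction in 6 of 6 lists (exact sign-flip permutation test, p = 0.0312, the smallest that 6 lists allow, adjusted p = 0.0469). A first intron begins at its own transcript start, so the classes differ in this by construction. Peaks within 10 kb of a start made up 21.4 to 23.6% of first intron peaks and 15.2 to 16.4% of later intron peaks. Peaks more than 100 kb away made up 13.1 to 14.4% and 19.3 to 22.4%. Between 30.5 and 32.4% of first intron peaks lay upstream of the nearest start, which then belonged to another transcript or gene.

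Genes held fewer first intron peaks than later intron peaks. A gene with at least 1 first intron peak had 2.496 of them on average in the exercised SIT list and 2.399 in the sedentary SIT list, against 3.59 and 3.42 later intron peaks in genes with at least 1 of those. The left hippocampus gave 1.89 and 2.53 against 2.56 and 3.76, and the right 1.92 and 2.21 against 2.55 and 3.07. The mean difference was -0.915 peaks (SD 0.242, n = 6 lists, negative in 6 of 6; exact sign-flip permutation test, p = 0.0312, adjusted p = 0.0469). A transcript has 1 first intron and may have several later ones, so gene structure largely set this direction. The p therefore says little about acetylation. A single first intron peak was the most common state, in 54.9 to 63.4% of genes with any, and 1.05 to 3.05% of those genes had 10 or more.

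Later introns cover more of the genome, so peaks were also counted per length of sequence. Intron bases more than 3 kb from every start and outside all exons came to 204.4 Mb used only as first intron and 535.3 Mb used only as later intron (GENCODE M21, all transcripts). Peak centres fell on first introns at 18.1 per Mb in the exercised SIT list, against 16.9 per Mb on later introns, and at 15.2 against 14.3 per Mb in the sedentary SIT list. In the left hippocampus the densities were 6.09 against 5.50 per Mb after exercise and 17.7 against 17.5 per Mb in sedentary mice. In the right hippocampus they were 6.78 against 5.98 and 11.8 against 10.8 per Mb. First introns were the denser class in 6 of 6 lists, by a ratio of 1.015 to 1.134 (mean log2 ratio 0.11, SD 0.06, n = 6; exact sign-flip permutation test, p = 0.0312, adjusted p = 0.0469). That call depends on distance and peaks per gene being among the 6 tests, and gene structure largely set their direction. With only the longest transcript of each gene the ratios were 0.9999 to 1.083 and the difference was no longer called (mean log2 ratio 0.07, above 0 in 5 of 6 lists, exact sign-flip permutation, adjusted p = 0.0938). Sequence that was first intron of one transcript and later intron of another (143.7 Mb) had the highest density in each list, 7.71 to 22.4 peaks per Mb.

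**Figure D1:**
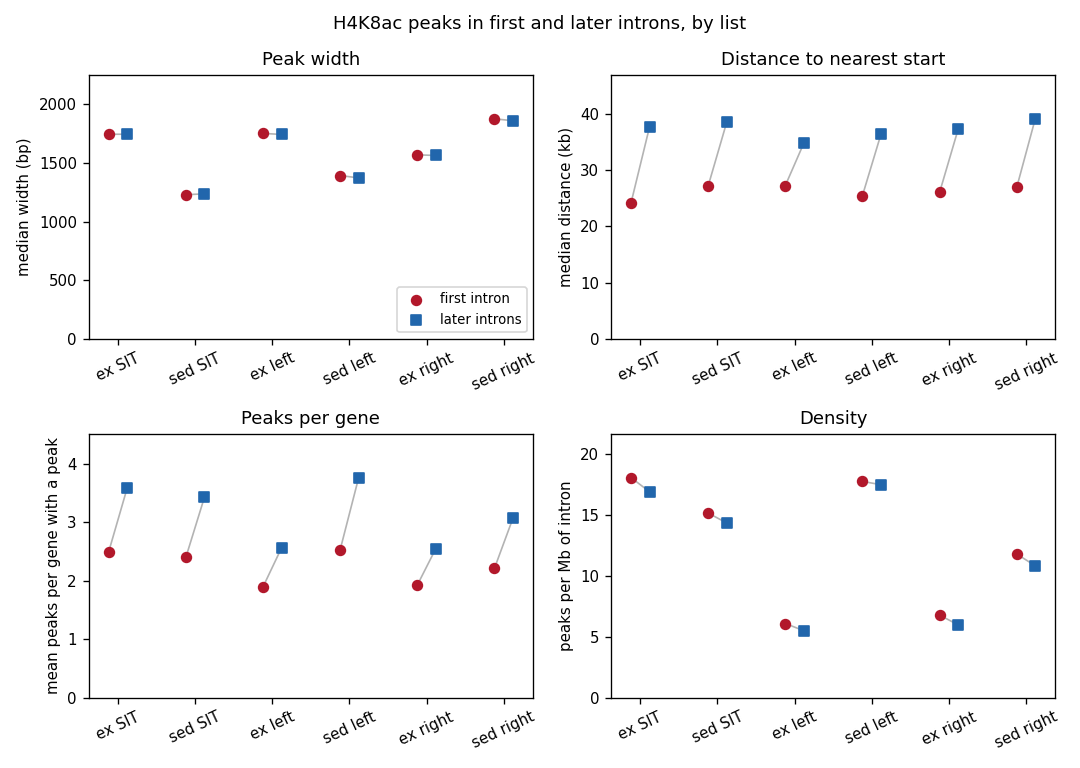
Values of first intron (circles) and later intron (squares) H4K8ac peaks in each of the 6 lists, exercised (ex) and sedentary (sed), for SIT and for left and right separate isolations: median width in bp, median distance to the nearest start in kb, mean peaks per gene, and peaks per Mb of intron. The 2 classes nearly coincide in width, first introns lie below later introns in distance in all 6 lists and in peaks per gene, and slightly above them in density.

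The ratio was also read by distance, with no test. At 10 to 30 kb from the nearest start the first to later ratio was 1.10 to 1.13 in the 6 lists, and the exact 95% interval included 1 in the exercised left list (0.988 to 1.24). At 30 to 100 kb it was 1.05 to 1.22, and the interval included 1 in the sedentary left list (0.970 to 1.13). With only the longest transcript of each gene the ratios were lower at 10 to 30 kb, 1.034 to 1.068, where 5 of 6 intervals included 1, and 1.06 to 1.17 at 30 to 100 kb, where 1 of 6 did. Within 3 to 10 kb it ranged from 0.924 in the sedentary left list, where the interval of 0.862 to 0.991 lay below 1, to 1.16 in the exercised right list. Beyond 100 kb it ranged from 0.928 to 1.19, and there all 6 intervals included 1. In each of the 3 arms the ratio over all distances was higher in the exercised than in the sedentary list (mean difference in log2 ratio 0.07, SD 0.06, n = 3 arms). With 3 arms the test cannot give an exact sign-flip p below 0.25, which was the value found (adjusted p = 0.833 over 5 tests).

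**Figure D2:**
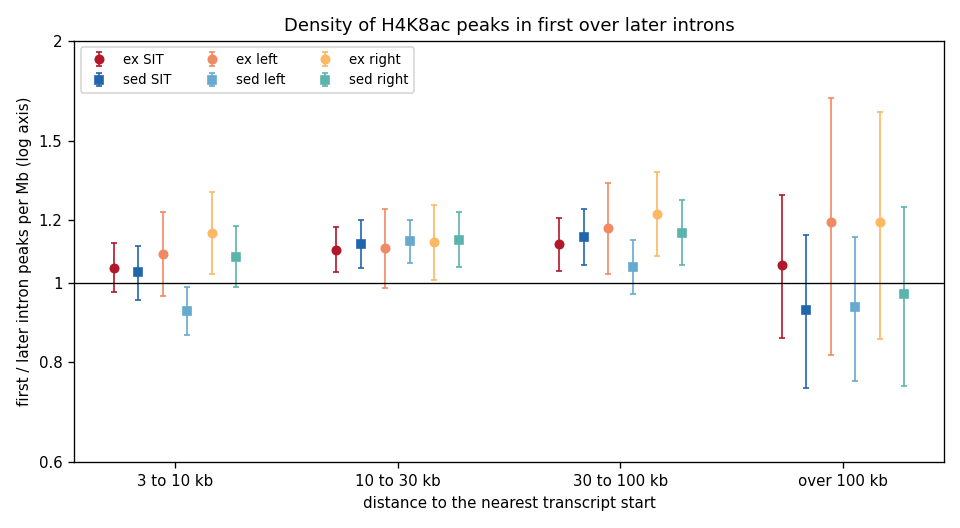
Ratio of first intron to later intron peak density (log axis) by distance to the nearest transcript start, for the 6 lists. Circles are exercised and squares sedentary lists, and bars are exact 95% intervals for counting error. Points at 10 to 100 kb lie above 1 in all 6 lists, between 1.05 and 1.22.

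First intron peaks were richer in G and C. Their mean GC content was 43.4% in the exercised SIT list, against 42.6% for later intron peaks, and 42.5% against 41.8% in the sedentary SIT list. The left hippocampus gave 44.0% against 43.3% after exercise and 43.3% against 42.4% in sedentary mice, and the right 43.5% against 42.9% and 43.5% against 42.7%. The difference was 0.766 percentage points (SD 0.117, n = 6 lists, positive in 6 of 6; exact sign-flip permutation test, p = 0.0312, adjusted p = 0.0469). As for density, the call depends on distance and peaks per gene being in the same family of tests. The introns themselves differed in the same direction, with 42.2% GC in sequence used only as first intron and 41.7% in sequence used only as later intron.

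Most first intron peaks sat deep in long introns of protein-coding transcripts. Of the annotated transcripts, 98.1 to 98.5% were found in GENCODE M21, and the peak overlapped intron 1 in each case. The median length of that intron was 77.1 to 80.1 kb, and the median position of the peak centre was 0.551 to 0.566 of the way along it. The transcripts were protein coding for 73.8 to 75.8% of these peaks and lincRNA for 10.9 to 12.2%. For 11.2 to 12.8% of first intron peaks the transcript had only 1 intron. The centre of 15.9 to 18.0% of the peaks was also inside a later intron of some other transcript. For 77.6 to 80.4% the intron belonged to the gene whose start was nearest, which held for 74.3 to 76.1% of later intron peaks.

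The longer the first intron, the more often a gene had a peak there. Of 12951 protein-coding genes with a first intron reaching beyond 3 kb from its start, 10.1% held a first intron peak in the exercised SIT list and 9.09% in the sedentary SIT list. The shares were 4.66% and 10.1% in the left hippocampus and 4.91% and 7.44% in the right, each for exercised and then sedentary mice. In the 6390 genes whose first intron reached 3 to 10 kb, 0.141 to 0.736% held a peak. In the 632 genes whose first intron reached beyond 100 kb, 31.3 to 52.7% did. A first intron peak in at least 1 of the 6 lists was found in 15.0% of the 12951 genes. A peak in all 6 lists was found in 2.54% of the 12951 genes, in 1 of the 6390 with the shortest reach and in 148 of the 632 with the longest (23.4%).

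**Figure D3:**
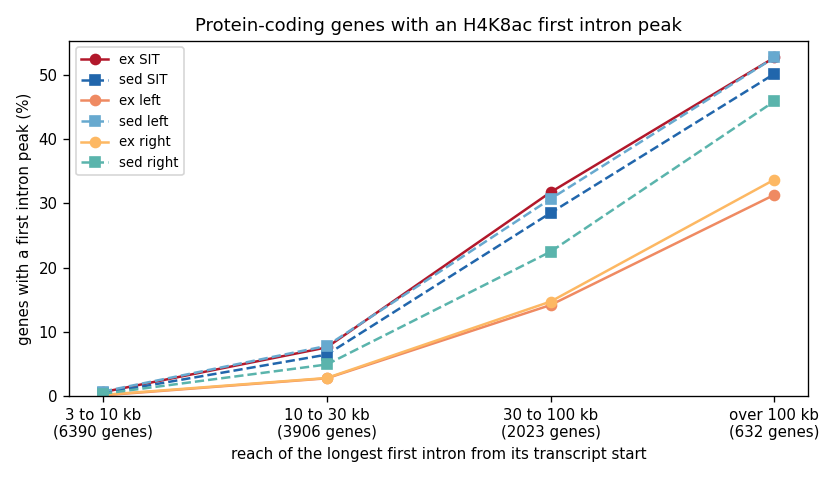
Share of protein-coding genes with a first intron H4K8ac peak (percent) by the reach of the longest first intron from its transcript start, one line per list (solid exercised, dashed sedentary). The share rises with reach in all 6 lists, from under 1% to between 31.3 and 52.7%, and the exercised left and right lists lie lowest.

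Gene groups were read against these shares. Cell adhesion genes of the synapse join pre- and postsynaptic membranes. Of 27 such genes with a first intron beyond 3 kb, 18 (66.7%) had a first intron peak in some list, against 15.0% of all genes, and 7 in all 6 lists (Cntn1, Lsamp, Opcml, Cadm1, Cadm2, Ptprd and Tenm2), which is 25.9% against 2.54% of all genes. All 7 are among the 23 listed genes with a reach beyond 100 kb, where 23.4% of all genes had a peak in every list. Of 24 voltage-gated channel genes, 16 (66.7%, against 15.0% of all genes) had a first intron peak in some list and 7 (29.2%, against 2.54%) in all 6, among them Cacna1e, Kcnd2, Kcnip4, Kcnma1, Kcnq3 and Kcnq5. Of the 12 channel genes with a reach beyond 100 kb, 6 (50%, against 23.4% of all genes of that reach) had a peak in all 6 lists. Of 18 glutamate receptor genes, 4 (22.2%, against 15.0% of all genes) had a first intron peak in some list, and 1 (5.56%, against 2.54%), the kainate receptor subunit gene Grik4, in all 6. It was 1 of 12 glutamate receptor genes with a reach beyond 100 kb (8.33%, against 23.4% of all genes of that reach). The shares with a peak in some list were not compared by reach, and no list was tested as a set.

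Kcnd2 encodes the Kv4.2 subunit of the A-type potassium current that controls dendritic excitability. Its first intron of 496.7 kb held 22 peaks in the exercised and 32 in the sedentary SIT list, 12 and 42 in the left and 19 and 20 in the right hippocampus. These peaks covered 46.9 and 50.6 kb, 25.5 and 80.9 kb, and 32.4 and 46.0 kb in the same order, and none of the lists had a later intron peak of Kcnd2. All first intron peaks numbered 4246 and 3692, 1443 and 4263, and 1570 and 2736 in these lists, so the Kcnd2 numbers are read together with the length of the list. Within each arm the exercised list had fewer Kcnd2 peaks and fewer bases under them than the sedentary one, with no test run, while over the arms the exercised and sedentary numbers overlapped. This direction did not hold relative to list length in the right arm. There Kcnd2 had 19 against 20 peaks, while all first intron peaks numbered 1570 against 2736. Kcnma1, the BK calcium-activated potassium channel, had 6 to 26 first intron peaks per list, and Kcnip4, which encodes an auxiliary subunit of Kv4 channels, had 7 to 21. Cadm1, an immunoglobulin-type adhesion molecule of synapses, had 13 and 15 first intron peaks in the SIT lists, 6 and 22 in the left and 4 and 8 in the right lists, with at most 1 later intron peak in a list. Tenm2, a teneurin that binds latrophilins across the synapse, was unlike it, with 2 to 7 first intron peaks and 20 to 62 later intron peaks.

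Of 20 transcription factor genes of hippocampal excitatory neurons, 8 (40%, against 15.0% of all genes) had a first intron peak in some list and 2 (10%, against 2.54%) in all 6. Of these 20 genes, 5 had a reach beyond 100 kb, and 1 of the 5 (20%, against 23.4% of all genes of that reach) had a peak in all 6 lists. Nfib, a nuclear factor I gene, had 8 and 8 first intron peaks in the SIT lists, 1 and 7 in the left and 5 and 6 in the right lists. Mef2d, an activity-regulated transcription factor gene with a first intron of modest reach (13.3 kb), had 1 or 2 peaks in each list. Of 24 kinase, phosphatase and plasticity genes, 9 (37.5%, against 15.0% of all genes) had a first intron peak in some list and 2 (8.33%, against 2.54%) in all 6. Of the 4 with a reach beyond 100 kb, 1 (25%, against 23.4%) had a peak in all 6 lists. Prkce, a protein kinase C gene, and Crtc1, which encodes a coactivator of CREB, were the genes in all 6 lists, with 4 to 10 and 1 to 3 peaks per list.

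Among markers of other cell types, 3 of 10 interneuron genes (30%), 2 of 12 astrocyte genes (16.7%), 3 of 11 oligodendrocyte lineage genes (27.3%) and 1 of 12 microglial and endothelial genes (8.33%) had a first intron peak in some list, against 15.0% of all genes. A peak in all 6 lists was found for 2 (20%), 1 (8.33%), 0 and 1 (8.33%) of them in the same order, against 2.54% of all genes. Adarb2, which marks a class of interneurons, had 1 to 6 peaks in each list. Slc1a2, the glutamate transporter GLT-1 of astrocytes, had 1 to 4. Pecam1, an endothelial adhesion molecule, had 1 to 3. Slc1a2 was the astrocyte gene with a peak in all 6 lists, of 12 listed with an eligible first intron, and no gene of the 11 oligodendrocyte lineage genes had one. Of 15 genes that the study itself names and that have an eligible first intron, 4 (26.7%, against 15.0% of all genes) had a first intron peak in some list, and Sntb2, a syntrophin, had 1 to 3 in each. The study chose those genes on these animals, so their count is not independent evidence.

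The 10 genes with the most first intron regions, after peaks of the 6 lists were merged where they shared at least 1 bp, were Gm20388 (108 regions), Kcnd2 (57), Hs6st3 (42), Cadm2 (39), Kcnma1 (39), Opcml (37), Dab1 (36), Celf2 (35), Nkain3 (35) and Ptprd (33). Hs6st3 makes heparan sulfate 6-O-sulfate, Dab1 is the intracellular adaptor of reelin signalling, and Ptprd is a receptor phosphatase that organizes synapses. Gm20388 stood apart, since it is a readthrough transcript at chr8:119910841-124345722 with a first intron of 4384.4 kb that contains 72 other protein-coding genes. The lists assigned its introns to Galnt2, and the nearest start was most often that of Gse1 (82 peaks). Leaving it out, an alternative added after the data were seen, left the difference in peaks per gene at -0.948.

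The 6 lists shared few first intron peaks. Merging gave 8099 first intron regions, of which 4473 (55.2%) were in 1 list and 332 (4.10%) in all 6. For later introns 57.0% of 18752 regions were in 1 list and 3.88% in all 6, and for the other classes 47.6% and 6.18% of 39625. The 332 regions lay in 254 genes, 45 of which had more than 1, led by St6galnac3 with 8, Celf2 and Sh3gl2 with 6 each, and Prkd1, 5730522E02Rik and Gm20388 with 5 each. Sh3gl2 and Prkd1 are named here after their counts were seen. Of the 332, 240 had bases common to all 6 lists, with a median of 936 bp. Peaks in the 332 regions had median widths of 1715.5 to 2734.0 bp per list, against 1141.5 to 1671.5 bp for peaks found in 1 list. A wider peak has more chance to touch another, so this is a description.

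**Figure D4:**
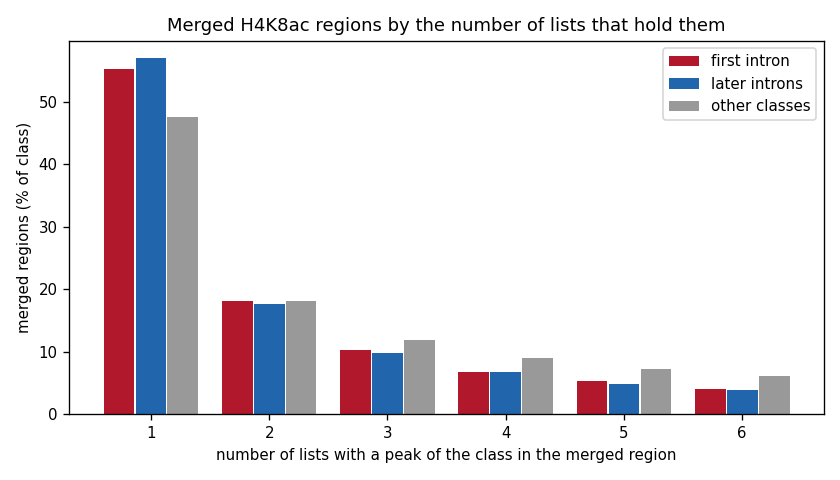
Merged H4K8ac regions by the number of lists that hold a peak of the class, in percent of the regions of that class, for first introns, later introns and all other classes. First and later introns follow each other closely (55.2% and 57.0% in 1 list), and the other classes have fewer regions in 1 list (47.6%).

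Among the 332 regions, the largest by summed width was in St6galnac3 at chr3:153561490-153591904. Its peaks covered 27099 bp in the exercised and 16382 bp in the sedentary SIT list, 22484 and 29047 bp in the left hippocampus and 11696 and 23513 bp in the right. Another region of the same intron, chr3:153640573-153666192, held the widest single first intron peak of all lists, 24607 bp in the exercised SIT list. The second largest region was in the Gm20388 intron next to Gse1 (chr8:120283205-120312439, 14875 to 25337 bp per list). Mettl24, Gfod1, Nkain3, Celf2, 5730522E02Rik, Ppp2r2c and Fry completed the 10, with summed widths between 2481 bp in the exercised right list for Fry and 18205 bp in the sedentary right list for Nkain3. Exercised and sedentary widths overlapped for each of the 10 regions. The widest first intron peaks of the other lists were in Nfix (14896 bp, sedentary SIT), Gm20388 (12818 bp, exercised left), St6galnac3 (17504 bp, sedentary left) and Gm11266 (11730 bp and 13447 bp, exercised and sedentary right).

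**Figure D5:**
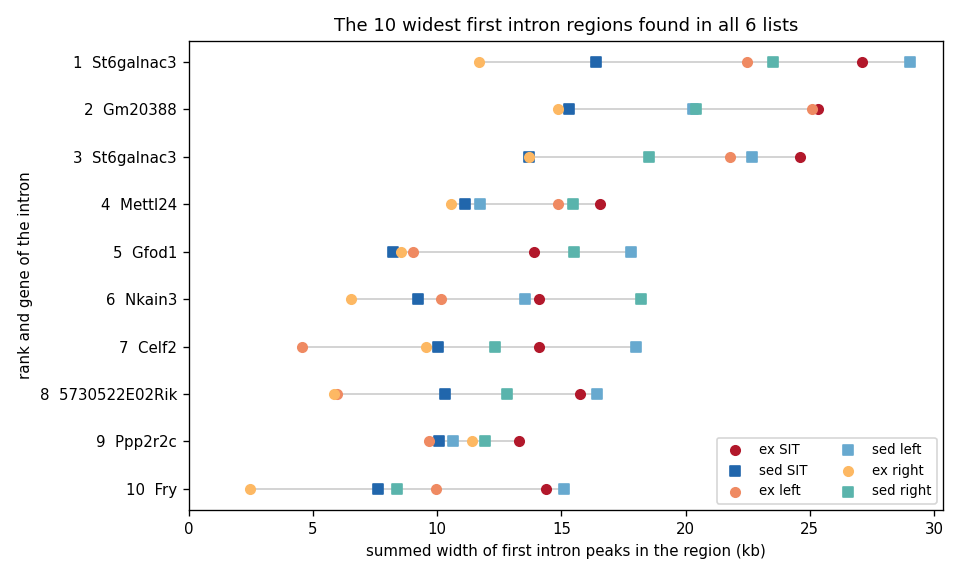
Summed width of first intron peaks (kb) in the 10 largest regions found in all 6 lists, one point per list (circles exercised, squares sedentary), with the gene of the intron. Exercised and sedentary points overlap in every row, and the St6galnac3 region at the top spans 11696 to 29047 bp.

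For recurrence in other lists no difference from later intron peaks was detected. On average over the other 5 lists, 37.0% of first intron peaks of the exercised SIT list and 39.9% of those of the sedentary SIT list overlapped a peak of any class, against 36.6 and 38.7% of later intron peaks. In the left hippocampus the shares were 61.6 and 35.9% against 61.8 and 34.7%, and in the right 60.8 and 49.1% against 60.6 and 50.1%. The shortest lists had the highest shares. The mean difference was 0.299 percentage points (SD 0.837, positive in 4 of 6; exact sign-flip permutation test, p = 0.375, adjusted p = 0.375), and since each list enters the values of the others, the n of 6 is not independent.

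Exercise was compared with the sedentary state within each arm. In the SIT arm, 1797 of 4246 exercised first intron peaks (42.3%) overlapped a sedentary peak, against 43.9% of peaks of all classes, and 2042 of 3692 sedentary ones (55.3%) overlapped an exercised peak, against 59.0%. In the left hippocampus it was 986 of 1443 (68.3%, against 73.1%) and 992 of 4263 (23.3%, against 25.2%). In the right hippocampus it was 982 of 1570 (62.55%, against 68.0%) and 888 of 2736 (32.5%, against 35.6%). First intron peaks were below the share of all peaks in each of the 6 directions, by less than 6 percentage points. Against later introns the difference was -0.709 percentage points for exercised peaks (SD 1.32, n = 3 arms; exact sign-flip permutation test, p = 0.5, adjusted p = 0.833) and 0.419 for sedentary peaks (SD 1.78; exact p = 0.75, adjusted p = 0.938).

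The number of first intron peaks was higher after exercise in the SIT arm, 4246 against 3692, and lower in the left hippocampus, 1443 against 4263, and in the right, 1570 against 2736. The total numbers of peaks moved the same way, 38136 against 30358, 12168 against 36425 and 13715 against 25159. The first intron share of all peaks changed by -0.0999 percentage points on average (SD 0.830, n = 3 arms; exact sign-flip permutation test, p = 1), and the share of intron peaks by 0.614 (SD 0.881; exact p = 0.5, adjusted p = 0.833). With 3 arms no p under 0.25 is possible. Sequencing depth per group is not held by the lists, so the numbers of peaks cannot be told apart from depth.

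Few first intron regions followed the condition in all 3 arms. Only 5 of 8099 regions (0.0617%) had a first intron peak in all 3 exercised lists and no H4K8ac peak of any class in a sedentary list, against 0.104% of 63514 merged regions of all classes. They lay in St6galnac3, Sema5a (a semaphorin of axon guidance), Plpp7, Arhgap21 (a GTPase-activating protein) and Extl3 (heparan sulfate synthesis), with peak widths of 1066 to 2853 bp. The reverse pattern held for 69 regions (0.852%), against 0.847% of all classes. The 5 widest of these were in D430041D05Rik, Cdh11 and Cdh10 (both cadherins), Add3 (an adducin of the membrane skeleton) and Gabbr2 (a GABA-B receptor subunit). The D430041D05Rik region, chr2:104332427-104339200, had peaks of 3336, 4742 and 4573 bp in the SIT, left and right lists of sedentary mice. For later introns the shares were 0.0693% (13 of 18752 regions) and 0.693% (130 regions), and no test was run on these counts. The exercised left and right lists were the shortest, which limits the regions with a peak in every exercised list. The smaller number of exercised-only regions therefore cannot be told apart from list length.

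An H4K8ac peak at a promoter as well was found for 62.9% of 1392 genes with a gene identifier in the exercised SIT list that had a first intron peak, and for 48.8% of 1254 in the sedentary SIT list. The shares were 40.4 and 63.5% in the left hippocampus and 42.5 and 53.4% in the right. For genes with a later intron peak the shares were 59.2 and 45.0%, 39.8 and 57.5%, and 39.8 and 53.0%, lower in 6 of 6 lists, with no test run. Of the 12951 protein-coding genes with a first intron beyond 3 kb, matched by symbol, 34.5% and 22.8%, 12.9% and 33.2%, and 15.9% and 24.7% had a promoter peak in the same order of lists. Few H4K8ac peaks of any class overlapped a peak of H3K27me3, the Polycomb mark, in the list of the same group. For first intron peaks it was 21 (0.495%) and 11 (0.298%) in the exercised and sedentary SIT lists, 0 and 6 (0.141%) in the left and 2 (0.127%) and 11 (0.402%) in the right hippocampus. For later intron peaks the shares were 0.277 and 0.0708%, 0.0633 and 0.0503%, and 0% and 0.318%, lower than for first introns in 5 of 6 lists, with no test run. For all classes they ranged from 0.117 to 0.7001%.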

How the data were processed

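The deposited H4K8ac and H3K27me3 lists give, per the file headers, the position, width, annotation and signed distance to the nearest transcript start of each peak, and no other measured value. Per the labels and the study's methods, the authors checked reads with FastQC 0.11.9, aligned them to mm10 with Bowtie2 2.4.1, called peaks with SEACR (stringent, threshold 0.01) and annotated them with ChIPseeker 1.8.6, promoters reaching 3 kb to either side of a start. How samples were joined into lists is not given in the sources used here. The study's methods state a minimum read number per library, but the lists hold no depth of their own, so precision is limited by their number.

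Here first introns were read from the annotation text, overlaps needed at least 1 bp, and first was compared with later over the 6 lists, or exercised with sedentary over 3 arms, by exact two-sided sign-flip permutation with Benjamini-Hochberg adjustment (Python 3.11.15, NumPy 2.4.6, SciPy 1.17.1, pysam 0.24.0). Functions were tested on simulated data. Introns came from GENCODE M21 and sequence from GRCm38.p6, both of the build of the lists. Coordinates are printed as deposited. A list has 1 peak that starts at base 0, so starts may be 1 base early. A gene is named by the GENCODE transcript of the intron. Named were listed genes with a first intron peak in all 6 lists, the 10 genes with the most regions, the 10 largest regions in all 6 lists, the widest peak of each list, and the 5 widest regions found in 1 condition only. Some genes that met these rules are not reported here. Sequences were picked from regions in all 6 lists after their motifs were seen. Members and gene lists were chosen with earlier results of these data known. Alternatives were other chromosomes, widths, overlaps, distances and transcripts. The 20 IgG samples were not analysed here. No column was of another series.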

Additional observations from a re-analysis of the deposited data

Results flagged for a closer look

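For 6 measures, the exercised minus sedentary difference had opposite signs in different arms, with 1 pair of lists per arm, and the difference between arms was not tested. The number of first intron peaks differed by 554 in the SIT arm, by -2820 in the left and by -1166 in the right separate isolations. The first intron share of all peaks differed by -1.03, 0.156 and 0.573 percentage points in the same order, and the share of intron peaks by 0.835, 1.36 and -0.357 percentage points. The median width of first intron peaks differed by 514.5, 359 and -306.5 bp. Their median distance to the nearest start differed by -3011.5, 1771.0 and -893.5 bp, and the number of first intron peaks per gene by 0.0972, -0.635 and -0.286. With 1 pair of lists an arm always moves one way, so opposite signs are easily met.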

How the results depend on the processing

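Of 55 alternative values of results with a test, 42 kept their direction and their side of the threshold, and of 23 alternative shares and counts with no test 18 stayed within their counting interval, their spread over lists or 1.5 times. Distance, peaks per gene and GC content were called under all settings over 6 lists (adjusted p = 0.0469 by exact sign-flip permutation). Gene structure largely set the direction for distance and peaks per gene. The calls for GC content and density depend on these being among the tests. With 5 lists no p under 0.0625 is possible, so no call could be made, and the mean differences stayed at -11809.3 to -10619.0 bp for distance, -0.973 to -0.852 for peaks per gene, 0.734 to 0.799 percentage points for GC content and 0.0940 to 0.126 for the log2 density ratio. With the longest transcript per gene that ratio was 0.0676 and not called. For width the difference was -5.5 bp within 3 to 10 kb of a start and 29.2 bp beyond 100 kb, where it was called (exact sign-flip permutation, adjusted p = 0.0375, range over its alternatives 0.0375 to 0.688); leaving out a list gave 4.6 to 10 bp. For overlap with other lists the uncalled difference turned to -0.669 with intron and nearest start in the same gene, -0.585 with protein-coding transcripts only (added after seeing the data), -0.237 with reciprocal overlap of 50%, -0.0778 in genes with both kinds of peak, -1.01 at 3 to 10 kb and -0.108 at 10 to 30 kb, and was 0.114 to 0.558 without single lists. Exercised minus sedentary, the share of all peaks was 0.139 in the widest 50% of peaks and 0.364 without the SIT arm (range -0.436 to 0.364), and the share of intron peaks 0.239 to 1.10 without single arms. First minus later overlap of exercised peaks was 0.846 in the widest 50% and 0.184 with equal numbers of widest peaks (-1.47 to -0.266 without single arms), and that of sedentary peaks -0.338 with intron and nearest start in the same gene and -0.437 without the SIT arm (range -0.437 to 1.34). The arm difference in log2 density ratio was 0.04 to 0.09. The mean first intron share, 30.9%, was 30.8 to 31.1% without single lists and 32% with intron and nearest start in the same gene, where the exercised SIT, sedentary SIT, sedentary left and sedentary right lists gave 32.5, 31.6, 31.2 and 32.8%. The 332 regions in all lists became 222 with reciprocal overlap and 453 with peaks of any class. The causes were not tested. No paired analysis was possible because the lists carry no replicate numbers, as far as animals are concerned, and the tests themselves pair values within a list or an arm.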
